A study of Rattus norvegicus with 20 samples.

Results

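Ovaries of adult rats exposed around birth to 60 mg/kg/day of a brominated flame retardant mixture were compared with ovaries of rats exposed to 0.06 mg/kg/day, gene by gene. The comparison rests on 10 of the 20 arrays of the study: 6 at 60 mg/kg/day (replicates 1 to 6) and 4 at 0.06 mg/kg/day (replicates 1, 2, 3 and 5). They were chosen by the dose in their titles, with no use of measured values. Replicate 4 of the 0.06 dose, which the submitters took out as an outlier, was not analysed here.

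All animals were female offspring of Sprague Dawley rats, and the whole ovary was taken on postnatal day 46. The dams ate the mixture in their diet from at least 1 week before mating until the pups were weaned on postnatal day 21, so the offspring were exposed through the dam and were not fed the mixture after weaning, as far as the labels say. The 60 mg/kg/day diet held 750 mg of mixture per kg of diet and the 0.06 mg/kg/day diet held 0.75 mg per kg, and both doses are per kg of the dam's body weight at an assumed intake of 80 g of food per kg and day. DE-71 made up 52.1% of the mixture and BDE-209 44.2%, with 3.3% HBCD and 0.4% DE-79. Both groups received the same mixture, so this is a comparison of 2 doses, and neither group is unexposed. Undosed rats (0 mg/kg/day, 5 arrays) and rats at 20 mg/kg/day (5 arrays) entered the fit and are given beside a result where they help to read it. Each array holds the RNA of 1 animal, and the animals came from independent litters, so the p-values below measure the spread between animals.

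Brominated flame retardants are additives of plastics, foams and textiles. DE-71 and DE-79 are commercial mixtures of polybrominated diphenyl ethers, BDE-209 is the fully brominated member of that family, and HBCD is the cyclic hexabromocyclododecane. Polybrominated diphenyl ethers resemble thyroid hormones in structure and are known to disturb thyroid hormone transport in rodents. The ovary of a young adult rat holds oocytes in follicles, granulosa cells that feed them and make oestrogen, theca cells that make androgen, and corpora lutea, the progesterone-making bodies left after ovulation. Its makeup shifts over each oestrous cycle, and the labels used here give no cycle stage.

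RNA was hybridised to 1-colour Agilent arrays, and the level of a probe is its log2 signal relative to the 75th percentile of that array (a level of 0 is the 75th percentile, and each unit is 1 doubling). Levels of different probes cannot be compared with each other. The 10 arrays lay on 3 slides: slide 1 held 2 arrays of each dose, slide 2 held 1 array at 0.06 and 3 at 60, and slide 3 held 1 of each. Slide was set beforehand as a block in the fit, and 4454 of the 23258 probes tested differed between slides (limma, adjusted p under 0.05). A difference below is therefore the slide-adjusted log2 level at 60 minus that at 0.06, with its standard error, and need not equal the gap between the plain group means. Between 74.8% and 79.9% of spots were well above background on the 10 arrays, and the number of arrays limits the precision.

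No probe differed between the doses after adjustment over all 23258 probes (limma with Benjamini-Hochberg adjustment, adjusted p under 0.05). The lowest adjusted p was 0.379, and 1024 probes, 4.4% of those tested, had an unadjusted p under 0.05. Of these, 492 (2.12%) stood higher at 60 and 532 (2.29%) lower. In 77 probes (0.331%) the 6 levels at 60 lay outside the range of the 4 levels at 0.06, 35 above it and 42 below. The genes named below are therefore those of smallest p or largest size, and every one of them missed the threshold.

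Differences between the doses were small against the spread between animals. The median absolute difference was 0.106 on the log2 scale and the 99th percentile was 0.871. The median half-width of the 95% interval was 0.315. Only 147 probes differed by over 1 log2 unit, 92 of them higher at 60 and 55 lower. The 0.06 group was the more uneven: its median SD was 0.281 against 0.228 at 60, and its SD was the larger for 66.7% of probes. Leaving out 0.06 replicate 3 raised the probes at an unadjusted p under 0.05 to 1974. It also gave the 1 call of all the fits, an unnamed probe with a difference of +1.24 and an adjusted p of 0.00365. That probe was well above background on 0 of 4 arrays at 0.06 and 2 of 6 at 60.

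**Figure D1:**
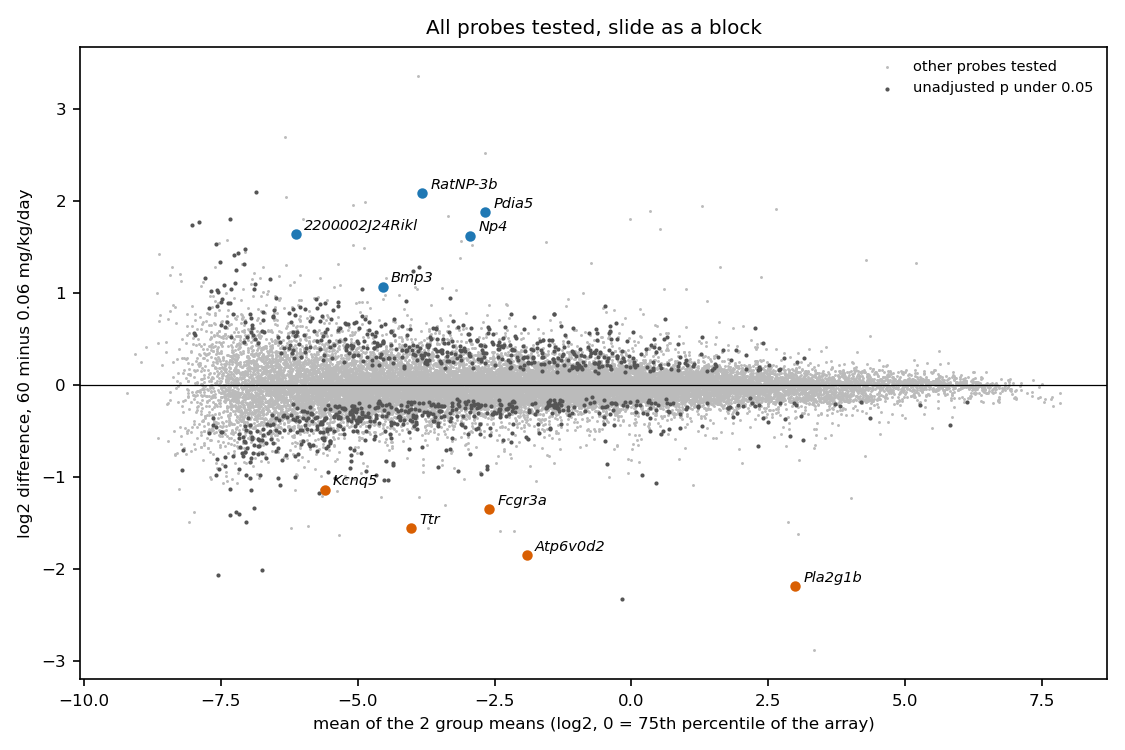
Each point is 1 of the 23258 probes tested, with the mean of both group means on the x axis (log2, 0 is the 75th percentile of an array) and the slide-adjusted log2 difference of 60 minus 0.06 mg/kg/day on the y axis. Dark points are the 1024 probes with an unadjusted p under 0.05, and the coloured points are the 5 largest named differences each way (blue higher at 60, orange lower), from 2.09 for RatNP-3b to -2.19 for Pla2g1b. None passed the adjusted threshold.

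The 12 named genes of smallest p that stood higher at 60 are given by role. Haus3, a subunit of the augmin complex that builds spindle microtubules, had levels of -2.93, -2.82, -2.85 and -2.91 at 0.06 (replicates 1, 2, 3 and 5) and from -2.70 through a median of -2.66 to -2.43 at 60. All 6 arrays at 60 were above all 4 at 0.06, by a slide-adjusted +0.28 ± 0.08 (SE). Donson, which helps load the DNA helicase and protects replication forks, stood at -5.28, -5.56, -5.30 and -5.42 at 0.06. At 60 it lay between -5.25 and -4.80 with a median of -4.93, again above every 0.06 array, with a difference of +0.42 ± 0.11. Haus3 and Donson were the only 2 of these 12 genes whose groups did not overlap.

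Bard1, the partner of the repair protein Brca1, differed by +0.47 ± 0.13, with 4 of 6 arrays at 60 above every 0.06 array. Cdkn3, a phosphatase that acts on cyclin-dependent kinases, stood at -3.24, -3.56, -3.79 and -3.64 at 0.06 and from -3.50 through -3.11 to -2.93 at 60, a difference of +0.46 ± 0.13 with 5 of 6 arrays above. Rpp30, a protein subunit of ribonuclease P, gave +0.31 ± 0.08, and its 1 other probe had the same sign. Every gene of this set, Bard1, Cdkn3 and Rpp30 included, kept its sign on each of the 3 slides. The choice by p in a fit with slide as a block favours this.

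The other genes of this set have unrelated roles. Cct8l2, a chaperonin-like gene, differed by +0.82 ± 0.21, with levels from -6.71 to -5.96 at 0.06, where it was well above background on 3 of 4 arrays, and from -6.04 to -5.05 at 60. Stap1, an adaptor protein of B cell receptor signalling, had the smallest p of the 12 (unadjusted p = 0.000765) with +0.68 ± 0.16. Its levels at 0.06 were -5.35, -6.11, -5.39 and -4.72, so replicate 2 was low and replicate 5 lay within the range at 60 (-5.06 to -4.25). Capn6, a calpain without protease activity that binds microtubules, differed by +0.57 ± 0.15. P2ry1, a receptor for ADP, differed by +0.48 ± 0.13, with 5 arrays at 60 between -5.47 and -5.41 and replicate 5 at -6.02, inside the 0.06 range. Lcat, which esterifies cholesterol in lipoproteins, gave +0.37 ± 0.10, Mboat1, a lysophospholipid acyltransferase, +0.32 ± 0.09, and Rexo5, an RNA exonuclease, +0.54 ± 0.15. The adjusted p of each of the 12 was 0.984. The undosed rats stood near the 60 group in some of the 12 and near the 0.06 group in others. Plain means of undosed, 0.06 and 60 arrays were -5.62, -6.37 and -5.57 for Cct8l2 and -1.28, -1.57 and -1.25 for Lcat. For Capn6 they were -0.93, -1.09 and -0.46, and for Rexo5 -5.91, -5.85 and -5.41. Normexp, another background correction, was run with an offset of 50 added to each signal before the log2. Such an offset in itself narrows the differences of dim probes. With normexp 8 of the 12 differences shrank by over 1.5 times. Among them were Cct8l2 (to 0.17), Stap1 (0.18), P2ry1 (0.09), Rexo5 (0.09), Donson (0.12) and Haus3 (0.15).

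The 12 named genes of smallest p that stood lower at 60 include 3 whose groups did not overlap. Dmrtc1a, a relative of the DM-domain transcription factors of gonad development, had levels of -4.39, -4.26, -4.31 and -4.33 at 0.06. At 60 it lay between -4.74 and -4.57 with a median of -4.67. Both groups were tight (SD 0.05 at 0.06 and 0.06 at 60), and the difference of -0.34 ± 0.09 had nearly the same size on each slide (-0.34, -0.33 and -0.42). The undosed rats, however, stood between -4.93 and -4.54, in the same range as the 60 group, and the rats at 20 mg/kg/day between -4.66 and -4.38.

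Tmem14a, a small membrane protein of mitochondria and endoplasmic reticulum, stood at 1.27, 1.36, 0.84 and 0.99 at 0.06 and between 0.53 and 0.77 at 60 (median 0.68). Its difference was -0.47 ± 0.12, with 0.06 replicates 1 and 2 the highest, and it was -0.09 on slide 2. Ppp1r11, an inhibitor of protein phosphatase 1, was tight in both groups, at 1.30, 1.32, 1.30 and 1.36 against 1.00 to 1.21 (median 1.12). It differed by -0.23 ± 0.06, a 1.17-fold step, and the undosed rats spanned both groups (1.12 to 1.40).

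Serpinb8, a serine protease inhibitor, had the smallest p of the 12 (unadjusted p = 0.000481, adjusted p = 0.984). Its levels were -4.01, -3.44, -3.08 and -3.45 at 0.06 and from -4.49 through -4.27 to -3.52 at 60. It differed by -0.67 ± 0.15, with 5 of 6 arrays at 60 below every 0.06 array and replicate 6 among the 0.06 levels. Adgrg5, an adhesion G protein-coupled receptor, differed by -0.49 ± 0.12, the olfactory receptor gene Or4a77 by -0.68 ± 0.18 and the transcription factor gene Pitx3 by -0.40 ± 0.11. In each of these 3, as in Serpinb8, 5 arrays at 60 were below all of 0.06 and replicate 6 was the highest at 60. Replicate 6 is the only 60 array of slide 3, and the difference on that slide was -0.06 for Serpinb8, -0.01 for Adgrg5, -0.10 for Or4a77 and -0.14 for Pitx3. Or4a77 was well above background on 4 of 4 arrays at 0.06 and 2 of 6 at 60.

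The rest of this set were Nxnl1, a thioredoxin-like gene of the retina (-0.41 ± 0.11), Garin4, a testis gene (-0.60 ± 0.16, and -0.39 without 0.06 replicate 3), Glp1r, the receptor of the incretin GLP-1 (-0.38 ± 0.10), Dpf3, a subunit of the BAF chromatin remodelling complex (-0.23 ± 0.06), and the olfactory receptor gene Or5m8 (-0.34 ± 0.10). Most of the 12 are dim probes: 10 of them had a group mean under -3 at both doses, and Tmem14a and Ppp1r11 were the exceptions. The differences of all 12 had the same sign on all 3 slides, which their choice by p favours. With normexp 10 of the 12 shrank by over 1.5 times, among them Serpinb8 to -0.43, Or4a77 to -0.23, Adgrg5 to -0.24 and Dmrtc1a to -0.22.

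**Figure D2:**
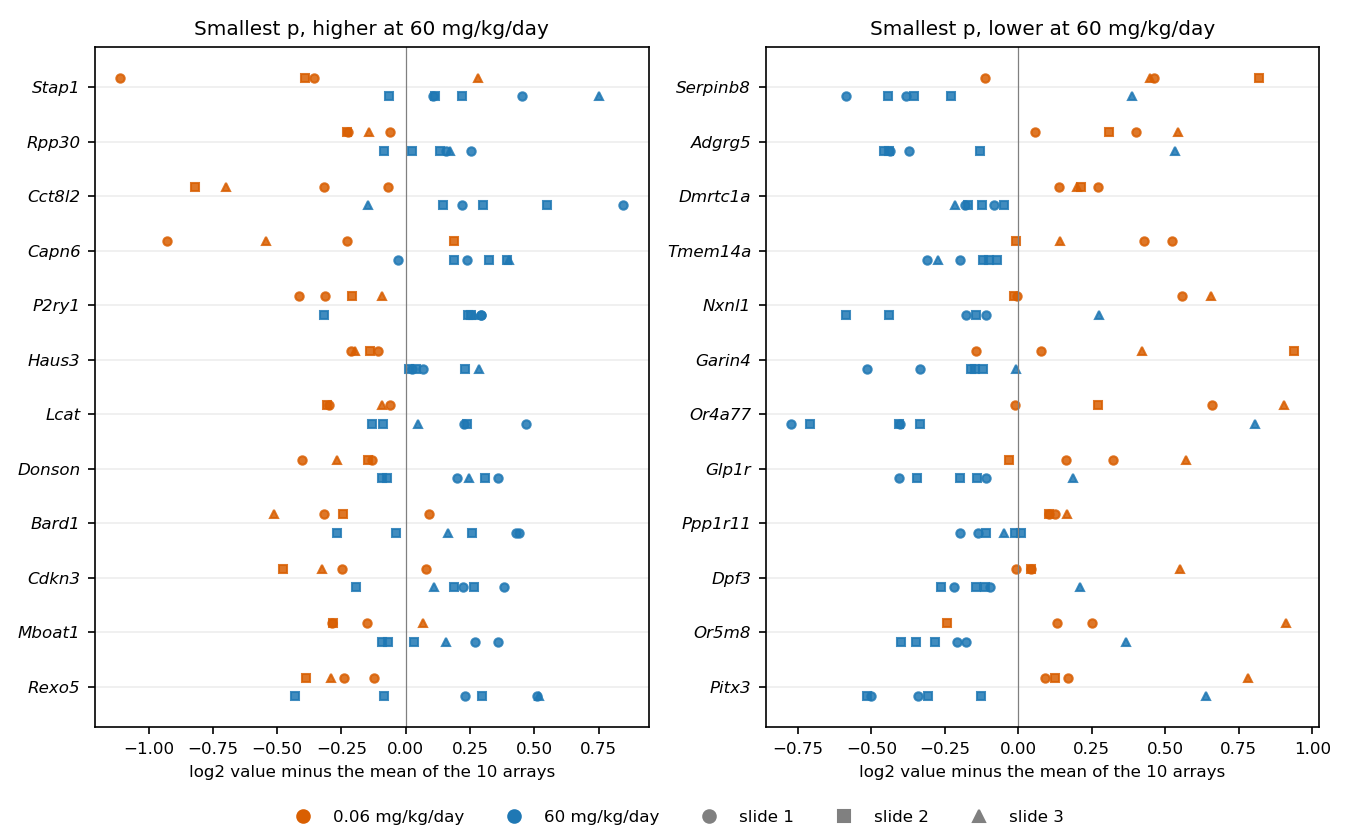
Levels of the 12 genes of smallest p higher at 60 (left) and the 12 lower (right) on each of the 10 arrays, as the log2 level minus that gene's mean over the 10 arrays; orange is 0.06 and blue is 60 mg/kg/day, and the marker gives the slide. The groups are apart for Haus3 and Donson on the left and for Dmrtc1a, Tmem14a and Ppp1r11 on the right, and the slide 3 array at 60 (blue triangle) lies to the right of the others for Serpinb8, Adgrg5, Or4a77, Dpf3, Or5m8 and Pitx3.

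Probes of 2 further genes had smaller p-values but were dim on too many arrays to enter that choice, and are named because their values were seen. Nrn1, the neurite growth factor neuritin, had the lowest p of all probes (unadjusted p = 1.63e-05, adjusted p = 0.379). Its levels were -7.94, -8.35, -7.65 and -7.82 at 0.06 and between -7.16 and -6.19 at 60, so the groups did not overlap. It was well above background on 0 of 4 and 3 of 6 arrays. Beside its difference of +1.41, a bound of 1.27-fold higher at 60 is therefore given. With normexp the Nrn1 difference was 0.07, which is smaller than that bound. The bound sets the mean level of all 6 arrays at 60 against the detection floor of each 0.06 array (its dimmest probe that is well above background), or the probe's own signal where that is higher. It holds for the main background correction only and makes no allowance for the spread between animals. Ano7, a member of the anoctamin family, stood lower by 0.64 ± 0.12 on the log2 scale (adjusted p = 0.531) (-0.23 with normexp), and was well above background on 3 of 4 and 4 of 6 arrays.

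The largest differences among named genes came from genes that varied widely within a dose. RatNP-3b and Np4, which encode defensins, the antibacterial peptides of neutrophils, stood higher at 60 by 2.09 ± 0.89 and 1.63 ± 0.65, and with normexp by 0.99 and 1.03. RatNP-3b levels were -6.26, -7.24, -3.73 and -2.55 at 0.06 and from -3.92 through -2.57 to -1.62 at 60. It was well above background on 3 of 4 arrays at 0.06, and without replicate 2 its difference was 1.37. Replicates 1 and 2 at 0.06, both on slide 1, were low in both genes, and by slide the difference ran from 3.76 on slide 1 to -0.11 on slide 3 for RatNP-3b and from 2.42 to -0.10 for Np4. The rat neutrophil defensins are a family of close copies, so a probe may take up more than 1 of them. Of the 13 measured mast cell and granulocyte markers, 3 stood higher at 60 and 10 lower, with a median of -0.12, and -0.26 without 0.06 replicate 2.

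Pdia5, a disulphide isomerase of the endoplasmic reticulum, differed by 1.88 ± 0.73. It stood at -3.70, -2.68, -3.53 and -3.81 at 0.06, and at 60 replicates 1, 2, 5 and 6 lay between -1.67 and -0.71 while replicates 3 and 4 stood at -3.40 and -3.64. The undosed rats ranged as widely, from -3.69 to -0.24, and so did those at 20 mg/kg/day, from -3.84 to -0.14. Bmp3, a ligand of the bone morphogenetic protein family, gave 1.07 ± 0.45, with 60 replicate 6 at -1.90 and the next at -3.43. Without that array it gave 0.62. The uncharacterised gene 2200002J24Rikl was well above background on 2 of 4 arrays at 0.06 and 6 of 6 at 60. Its fitted difference of 1.64 ± 0.66 includes 0.06 replicates 2 and 5, at -9.13 and -8.38, where it was not well above background. The other arrays at 0.06 and 60 lay between -5.71 and -4.77. Undosed rats ranged from -9.15 to -6.60 and those at 20 mg/kg/day from -6.49 to -4.95. The fitted difference was 1.00 without 0.06 replicate 2 and 0.21 with normexp.

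On the lower side, Pla2g1b, a secreted phospholipase A2, stood at 3.79, 6.43, 2.84 and 3.56 at 0.06 and between 0.58 and 3.20 at 60 (median 1.89). The difference was -2.19 ± 0.74, with 5 of 6 arrays at 60 below every 0.06 array, and -1.40 without 0.06 replicate 2, the highest array. The undosed rats stood between 2.34 and 5.25. Atp6v0d2, a subunit of the vacuolar proton pump, differed by -1.85 ± 0.63. Its 0.06 replicates 1 and 2 were at -0.04 and 0.98 and replicate 3 at -3.23, and on slide 2 the sign was the other way (0.68). Its difference was -1.25 without 0.06 replicate 2 and -2.79 without 0.06 replicate 3.

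Ttr, the thyroid hormone carrier transthyretin, had levels of -2.72, -2.09, -3.48 and -4.31 at 0.06 and from -5.78 through -4.81 to -4.16 at 60. It differed by -1.55 ± 0.51 (unadjusted p = 0.00804, adjusted p = 0.984), and 5 of 6 arrays at 60 were below every 0.06 array. Unlike the defensins, Ttr kept its sign on every slide (-2.12, -1.36 and -1.47), and with any 1 array of the 10 left out the difference lay between -2.07 and -1.19. With normexp it was -0.97. The undosed rats, between -5.20 and -2.53, spanned most of both groups. Fcgr3a, an Fc receptor of macrophages and natural killer cells, gave -1.35 ± 0.46, and Kcnq5, a potassium channel, -1.14 ± 0.43. Without 0.06 replicate 2, the highest array for both, these were -0.88 and -0.62, and with normexp Kcnq5 gave -0.48.

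Of 24 ovarian genes named whatever their values, 23 were measured. Foxl2 had no named probe among those tested. Of the 23, Fshr and Bmp15 had an unadjusted p under 0.05 and none passed the adjusted threshold. Among genes of the steroid pathway, Cyp11a1, which makes pregnenolone from cholesterol, stood at 7.28 ± 0.28 (SD, n = 4) at 0.06 and 7.18 ± 0.20 (SD, n = 6) at 60, a difference of -0.08 with a 95% interval from -0.45 to 0.29, and it gave 0.03 without 0.06 replicate 2. Star, which moves cholesterol into mitochondria, gave -0.31 with an interval from -0.79 to 0.17, and between -0.57 and -0.19 with 1 array left out (0.06 replicates 3 and 1). Hsd3b1, which makes progesterone, gave -0.14 with an interval from -0.32 to 0.04, and -0.08 without 60 replicate 2.

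Cyp17a1 (which theca cells use to make androgens) and Akr1c18 (the enzyme that inactivates progesterone) had the widest intervals. Cyp17a1 stood at -2.63, 1.71, 3.11 and 2.97 at 0.06, and at 60 replicate 5 was at -3.52 and the other 5 between 2.05 and 3.86. Akr1c18 stood at 7.05, -2.48, 6.14 and 6.73 at 0.06 and between 5.28 and 6.73 at 60. So 1 animal at each dose had little Cyp17a1 and 1 animal at 0.06 had little Akr1c18. The differences of 1.29 ± 1.75 and 1.33 ± 2.00 turned with these arrays: Cyp17a1 gave -0.19 without 0.06 replicate 1, and Akr1c18 gave -0.90 without 0.06 replicate 2. Undosed rats ranged from -2.62 to 3.47 in Cyp17a1 and from -4.23 to 7.02 in Akr1c18, so low levels of both genes were seen there as well. Rats at 20 mg/kg/day ranged from -3.49 to 3.37 in Cyp17a1 and from 5.31 to 6.21 in Akr1c18. The present symbol of the Akr1c18 probe in RefSeq is Akr1c3.

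The receptor of luteinising hormone, Lhcgr, stood apart in the same animals. It stood at -3.10, 2.10, -1.04 and -1.45 at 0.06 and at -3.63 in 60 replicate 5, against -1.69 to -1.08 on the other 60 arrays. The difference was -0.59 ± 0.88, and 0.31 without 0.06 replicate 2. Rln1, the luteal hormone relaxin and 1 of the 4 corpus luteum genes of smallest p, stood at 7.48, 7.12, 1.59 and 2.33 at 0.06 and from 0.68 through 1.67 to 4.20 at 60. Replicates 1 and 2 at 0.06 were thus far above all the other arrays, and the difference of -2.88 ± 1.58 ran from -6.16 on slide 1 to 1.18 on slide 2.

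**Figure D3:**
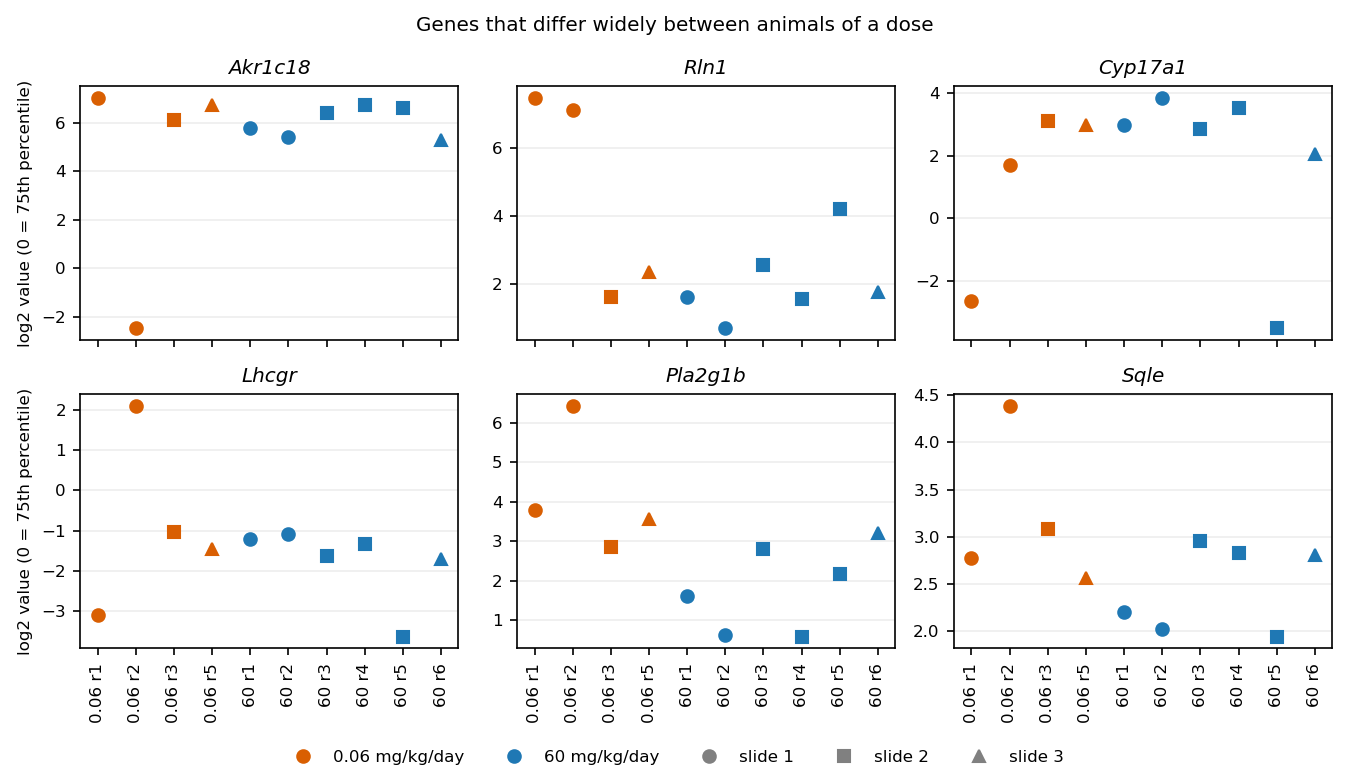
Log2 levels of 6 genes on the 4 arrays at 0.06 (orange) and the 6 at 60 mg/kg/day (blue), with the replicate number on the x axis and the slide as the marker; each panel has its own y axis. Single animals stand apart: 0.06 replicate 2 in Akr1c18, Lhcgr, Pla2g1b and Sqle, 0.06 replicates 1 and 2 in Rln1, and 0.06 replicate 1 and 60 replicate 5 in Cyp17a1.

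Granulosa genes were followed through the receptors and hormones of growing follicles. Fshr, the receptor of follicle-stimulating hormone, stood at -1.87, -1.11, -1.60 and -0.93 at 0.06 and from -1.83 through -0.93 to -0.63 at 60. The groups overlapped, with 0.06 replicate 5 above 2 of the 60 arrays, and the difference was +0.42 ± 0.19 (unadjusted p = 0.043, adjusted p = 0.984). It was +0.80 on slide 1, +0.15 on slide 2 and +0.12 on slide 3, and +0.22 without 0.06 replicate 1. Amh, made by small growing follicles, gave +0.36 ± 0.34, and -0.03 without 0.06 replicate 1. The inhibin and activin subunits gave +0.14 ± 0.12 (Inha), +0.20 ± 0.30 (Inhba, 0.00 without 0.06 replicate 1 and -0.03 without replicate 3) and +0.13 ± 0.17 (Inhbb, 0.03 without 0.06 replicate 2). Of the 22 measured granulosa and growing follicle genes, 17 stood higher at 60, with a median of +0.13, and 1 of them (Fshr) had an unadjusted p under 0.05. Without 0.06 replicate 1 that median was +0.03, and on slide 3 it was -0.06 with 10 of 22 higher. The list's mean, as a deviation from its mean over all 20 arrays, lay between -0.26 and 0.22 at 60. It lay between 0.03 and 0.20 in undosed rats and between -0.20 and -0.02 at 20 mg/kg/day. Over all 12452 genes, each by its brightest probe, 46.7% stood higher and 53.3% lower, the median was -0.01, and 4.27% had an unadjusted p under 0.05, 2.35% higher and 1.92% lower.

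Receptors of hormones and of xenobiotics gave no difference past the threshold. The aryl hydrocarbon receptor Ahr gave -0.06 ± 0.32, and its target Cyp1b1 gave +0.52 ± 0.47 with a slide range from -0.60 to 2.10. The thyroid hormone receptor Thra gave -0.07 ± 0.14. The oestrogen receptors gave -0.41 ± 0.25 (Esr1) and +0.12 ± 0.20 (Esr2). Kit, the receptor of stem cell factor on oocytes and theca cells, gave -0.14 ± 0.38. Its ligand Kitlg gave -0.02 ± 0.10, and the 2 further Kitlg probes had the other sign. The division markers Mki67 and Ccnb1 gave +0.32 ± 0.15 and +0.25 ± 0.20. Without 0.06 replicate 2 they gave 0.20 and 0.13, and on slide 2 both were negative (-0.05 and -0.34). With 1 array left out Ahr ran from -0.27 to 0.20 (0.06 replicates 1 and 3), Kit from -0.52 to 0.28 (the same arrays), Esr1 from -0.65 to -0.16 (0.06 replicates 5 and 3), Esr2 from 0.01 to 0.24 (0.06 replicates 1 and 2) and Cyp1b1 from 0.16 to 1.04 (0.06 replicates 5 and 3).

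**Figure D4:**
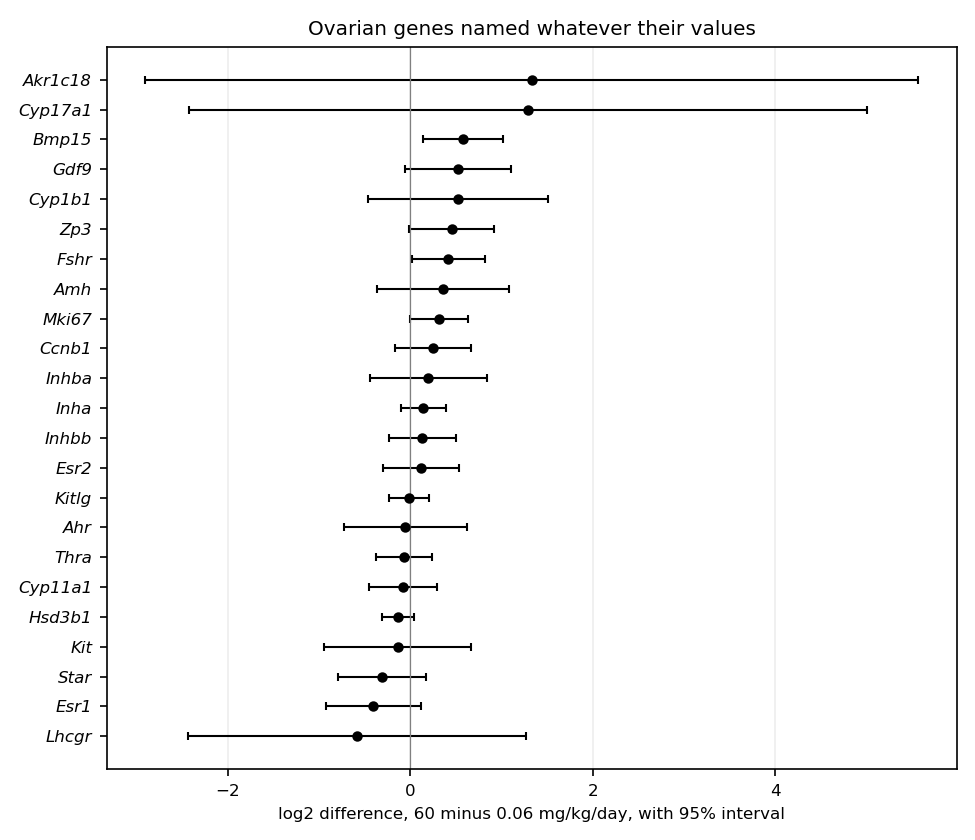
Slide-adjusted log2 difference of 60 minus 0.06 mg/kg/day (points) with its 95% interval (bars) for the 23 measured ovarian genes named whatever their values. Only the intervals of Bmp15 and Fshr lie wholly above 0 before adjustment, and Akr1c18, Cyp17a1 and Lhcgr have intervals several log2 units wide.

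Oocyte genes leaned to higher levels at 60. Of 17 measured, 16 stood higher, the median was +0.52 and 6 had an unadjusted p under 0.05, all higher, against 2.35% of all genes. None passed the adjusted threshold. Bmp15, a growth factor that the oocyte sends to its granulosa cells, stood at -5.84, -5.36, -6.73 and -5.26 at 0.06 and from -6.23 through -5.26 to -4.80 at 60, a difference of +0.58 ± 0.21 (unadjusted p = 0.0129), and 0.13 with normexp. Tcl1a, an Akt cofactor of oocytes and early embryos, gave +0.65 ± 0.26. The zona pellucida genes, which encode the coat of the egg, gave +0.62 ± 0.25 (Zp4), +0.61 ± 0.25 (Zp1) and, among the genes named whatever their values, +0.45 ± 0.22 (Zp3). Gdf9, the partner of Bmp15, gave +0.52 ± 0.28. In each of them the groups overlapped, and the lowest 0.06 array was replicate 3.

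The mean over the 17 oocyte genes, as a deviation from their mean over all 20 arrays, was -0.23, 0.33, -0.65 and 0.15 at 0.06. At 60 it was 0.97, 0.65, 0.04, -0.53, -0.42 and 0.65 in replicates 1 to 6. The 3 lowest 60 arrays were the 3 of slide 2, and the lowest 0.06 array was on slide 2 as well. Within slides the list had medians of +0.79 on slide 1, +0.41 on slide 2 and +0.56 on slide 3. Slides 2 and 3 each hold only 1 array at 0.06. Slide 2 did not hold the lowest array of the other doses. The undosed arrays of slide 1 were at -0.24 and -0.29, against -0.10 on slide 2. At 20 mg/kg/day the lowest array (-0.75) was on slide 3. Without the slide term the median was +0.36 and none of the 17 genes had an unadjusted p under 0.05. With 0.06 replicate 2 left out the median was +0.66 and 10 genes did. Undosed rats ranged from -0.29 to 0.67 with a mean of 0.13, and rats at 20 mg/kg/day from -0.75 to -0.16 with a mean of -0.32, so the undosed range overlapped both groups. In a whole ovary, fewer cells of a type and less RNA per cell cannot be told apart.

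The promoters of 3 zona genes are shown because these genes stood higher together and because each holds the same E-box, CAGGTG. E-boxes are the sites of basic helix-loop-helix factors, such as Figla, which drives zona genes in oocytes. Each is the RefSeq window of 300 bases, from 250 before to 50 after the annotated start in build GRCr8, printed on the gene's strand with the E-box in capitals on whichever strand it reads. Zp1 is at chr1:216992099-216992398 (minus strand), Zp3 at chr12:26334077-26334376 (minus strand) and Zp4 at chr17:63703651-63703950 (minus strand).
Zp1: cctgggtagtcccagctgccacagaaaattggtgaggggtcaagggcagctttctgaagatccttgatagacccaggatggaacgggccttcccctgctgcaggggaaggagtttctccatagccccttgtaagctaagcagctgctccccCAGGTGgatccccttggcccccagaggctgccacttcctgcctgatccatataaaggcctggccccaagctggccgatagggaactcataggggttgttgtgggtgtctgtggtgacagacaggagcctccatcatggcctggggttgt
Zp3: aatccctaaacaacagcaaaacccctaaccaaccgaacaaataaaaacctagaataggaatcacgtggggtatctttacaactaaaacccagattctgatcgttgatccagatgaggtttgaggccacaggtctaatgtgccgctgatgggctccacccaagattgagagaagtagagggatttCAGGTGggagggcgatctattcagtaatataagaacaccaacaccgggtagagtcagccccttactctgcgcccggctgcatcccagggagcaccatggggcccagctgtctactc
Zp4: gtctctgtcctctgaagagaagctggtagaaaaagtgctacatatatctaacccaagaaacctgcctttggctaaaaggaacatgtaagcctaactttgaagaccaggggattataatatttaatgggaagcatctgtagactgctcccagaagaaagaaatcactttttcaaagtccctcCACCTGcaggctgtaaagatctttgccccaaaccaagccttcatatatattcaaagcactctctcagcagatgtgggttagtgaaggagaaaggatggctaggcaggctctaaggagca
The E-box begins 99, 66 and 69 bases before the start in Zp1, Zp3 and Zp4. Of 14 measured oocyte genes with a promoter in the table, 8 (57.1%) hold CAGGTG on either strand, against 18.8% of all 33469 promoters. The first share takes a single promoter per gene. The second takes every promoter in the table, also those of genes not measured here, so the bases of the shares differ. A match of letters is a description and does not show that a factor binds there.

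Cell cycle and DNA replication genes stood higher at 60 in 33 of 37 cases, against 46.7% of all genes, with a median of +0.29. Of the 37, 7 (18.9%) had an unadjusted p under 0.05, all higher, against 2.35% of all genes. The 4 of smallest p were Kif23, a kinesin of cytokinesis (+0.41 ± 0.16), Ccne2, a cyclin of entry into S phase (+0.62 ± 0.23), Kif11, the spindle kinesin (+0.40 ± 0.16), and Bub1b, a spindle checkpoint kinase (+0.43 ± 0.17). Kif23 stood at -1.43, -1.76, -1.46 and -1.71 at 0.06 and from -1.59 through -1.23 to -0.86 at 60, so replicates 2 and 5 at 0.06 lay below every 60 array and the other 2 within their range. Over the 37 genes the mean deviation was 0.14, -0.39, 0.01 and -0.19 at 0.06 and between -0.13 and 0.41 at 60. The difference was not seen on slide 2, where the list's median was 0.00 and 18 of 37 genes were higher. It also leaned on 0.06 replicate 2, the lowest array: without it the median was +0.18 and no gene had an unadjusted p under 0.05. Without 0.06 replicate 1 the median was +0.37 and 18 genes did, as did 1123 of all 23258 probes.

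The promoters of Cdk1, the kinase that drives mitosis, and Cdkn3 are shown for the letters that mitotic genes often share: CCAAT, the box bound by NF-Y, and TTTGAA, the cell cycle homology element. Matches on either strand are in capitals. Cdk1 had a difference of +0.38 ± 0.17 (unadjusted p = 0.0379) with levels from 1.46 through 1.89 to 2.15 at 60 and 1.82 in the highest 0.06 array, and was chosen with its value known. Cdk1 is at chr20:19265043-19265342 (plus strand) and Cdkn3 at chr15:22502136-22502435 (plus strand), again from RefSeq in GRCr8.
Cdk1: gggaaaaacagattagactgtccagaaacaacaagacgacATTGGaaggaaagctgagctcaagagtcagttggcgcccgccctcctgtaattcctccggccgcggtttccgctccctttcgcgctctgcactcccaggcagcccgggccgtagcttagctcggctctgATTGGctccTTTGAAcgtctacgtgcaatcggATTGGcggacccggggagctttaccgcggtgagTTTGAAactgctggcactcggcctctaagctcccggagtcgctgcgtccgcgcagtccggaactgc
Cdkn3: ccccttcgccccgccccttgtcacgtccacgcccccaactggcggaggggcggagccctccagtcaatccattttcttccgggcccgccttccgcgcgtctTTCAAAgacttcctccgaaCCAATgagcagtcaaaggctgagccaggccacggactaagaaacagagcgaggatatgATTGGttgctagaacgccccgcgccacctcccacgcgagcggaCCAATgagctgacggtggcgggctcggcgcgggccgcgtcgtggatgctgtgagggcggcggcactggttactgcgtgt
Cdk1 holds CCAAT at 210, 81 and 49 bases before the start and TTTGAA at 72 and 16, and Cdkn3 holds CCAAT at 130, 72 and 29 and TTTGAA at 149. Of 25 measured cell cycle genes with a promoter in the table, 18 (72.0%) hold CCAAT, against 37.5% of all promoters, and 11 (44.0%) hold TTTGAA, against 18.3%. The bases of these shares differ as for the oocyte genes.

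Cholesterol synthesis and uptake genes stood lower at 60 in 25 of 27 cases, with a median of -0.31, but none had an unadjusted p under 0.05. Its mean deviation was 0.19, 0.87, 0.14 and -0.22 at 0.06 and between -0.39 and 0.23 at 60, so 0.06 replicate 2 was the highest array by far. Idi1, an isomerase of the isoprenoid pathway, gave -0.68 ± 0.33 and Dhcr7, the last enzyme of the pathway, -0.28 ± 0.14. Nsdhl, a sterol dehydrogenase, stood at -1.32, -0.06, -1.34 and -1.66 at 0.06 and gave -0.52 ± 0.28, and -0.20 without replicate 2. Npc1, which exports cholesterol from lysosomes, was 1 of the 2 that stood higher (+0.32 ± 0.17). Without 0.06 replicate 2 the median was -0.11 with 7 of 27 higher, and without 0.06 replicate 5 it was -0.50. On slide 1, which holds replicate 2, the median was -0.86 with 3 of 27 higher. On the other slides it was -0.21 with 5 higher (slide 2) and 0.24 with 21 higher (slide 3).

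Luteal genes stood lower at 60 in 13 of 18 cases, with a median of -0.17 and 1 at an unadjusted p under 0.05. On slide 2 the median was +0.14 with 10 of 18 higher. It was -0.10 without 0.06 replicate 1, the array highest in this list, and -0.09 without 60 replicate 1. The gene at an unadjusted p under 0.05 was Ptgfr, the receptor through which prostaglandin F2-alpha ends the life of the corpus luteum. It stood at 0.22, 0.10, -0.68 and 0.22 at 0.06 and from -1.73 through -0.75 to 0.14 at 60, a difference of -0.86 ± 0.34 (unadjusted p = 0.0231). Prlr, the prolactin receptor, gave -0.45 ± 0.24, and -0.20 without 0.06 replicate 2. Of 23 steroidogenesis genes 9 stood higher (median -0.08), of 15 theca and interstitial genes 6 (median -0.06) and of 14 genes of the response to the luteinising hormone surge 6 (median -0.03), and in these 3 lists no gene had an unadjusted p under 0.05. With 1 array left out the theca median reached 0.11 (without 0.06 replicate 2) and the surge median ran from -0.17 to 0.16 (without 0.06 replicates 2 and 1). The steroidogenesis median was -0.01 without 60 replicate 1.

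Matrix, energy and defence genes leaned one way by small amounts. Extracellular matrix genes stood higher in 20 of 24 cases with a median of +0.16, led by Col8a1, a short-chain collagen (+0.38 ± 0.17, unadjusted p = 0.045), and the median was +0.05 without 0.06 replicate 2 and -0.06 on slide 2. Oxidative phosphorylation genes stood lower in 28 of 32 cases, but the median was only -0.05, within the range that separate slides gave (-0.19, 0.01 and 0.09). Interferon response genes stood lower in 20 of 21 cases with a median of -0.16 and none at an unadjusted p under 0.05. Their mean deviation was -0.24, -0.24, 0.49 and 0.07 at 0.06 and from -0.48 to 0.10 at 60, so 0.06 replicate 3 was the highest. Without it the list's median was -0.03, and the slide medians were 0.10, -0.60 and -0.17.

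**Figure D5:**
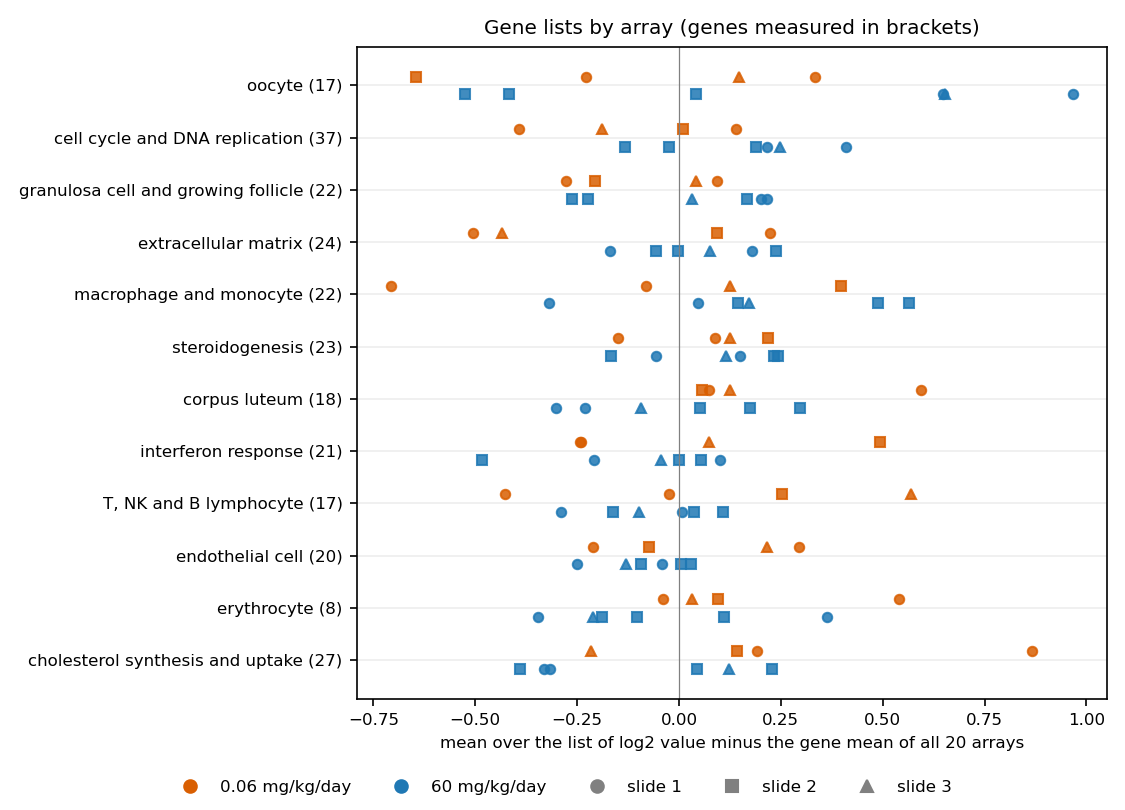
Mean over each gene list of the log2 level minus the gene's mean of all 20 arrays, for the 4 arrays at 0.06 (orange) and the 6 at 60 mg/kg/day (blue); numbers in brackets are genes measured and markers give the slide. The groups overlap in every list shown; the oocyte means of the 3 slide 2 arrays at 60 (blue squares) are below those of the other 60 arrays, and 0.06 replicate 2 is the highest for cholesterol synthesis (0.87) and the lowest for macrophage genes (-0.71) and cell cycle genes (-0.39).

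Markers of blood, vessel and immune cells were counted because a whole ovary holds all of them. Of 17 lymphocyte genes 12 stood lower at 60 (median -0.10), 3 of them at an unadjusted p under 0.05 against 1.92% of all genes. On slide 1 the list went the other way, with 13 of 17 higher and a median of +0.25. With 1 array left out its median lay between -0.23 (without 60 replicate 1) and -0.02 (without 0.06 replicate 3), and without 0.06 replicate 1 it was -0.22 with 6 genes at an unadjusted p under 0.05. The 3 genes were Cd79b, a chain of the B cell receptor, Klrk1, an activating receptor of natural killer cells (-0.21 ± 0.08), and Cd7, a surface protein of T cells (-0.33 ± 0.14). Cd79b stood at -6.67, -5.23, -6.92 and -6.28 at 0.06 and between -8.83 and -6.85 at 60. It was well above background on 2 of 4 and 0 of 6 arrays. Its difference is given as a bound of 1.67-fold lower at 60, built as for Nrn1 and with the same limits (limma, unadjusted p = 0.00836, adjusted p = 0.984). Macrophage genes were split, with 15 of 22 higher and a median of +0.09 that turned to -0.04 without 0.06 replicate 2, the array lowest in them.

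Endothelial genes stood lower in 16 of 20 cases, with a median of -0.12. On slide 2 the median was +0.07 with 13 of 20 higher. It was -0.20 without 0.06 replicate 1 and -0.03 without 60 replicate 2. Vwf, the von Willebrand factor of vessel walls, stood at 0.32, 0.47, 0.44 and 0.48 at 0.06 and from -0.14 through 0.10 to 0.41 at 60. Only 60 replicate 5 reached the 0.06 range, and the difference was -0.31 ± 0.13 (unadjusted p = 0.0294, adjusted p = 0.984), with the same sign on each slide. Of 8 erythrocyte genes 6 stood lower, with a median of -0.33, and -0.18 without 0.06 replicate 2 or -0.16 without 60 replicate 2. Haemoglobin alpha, Hba-a1, was at 5.91, 6.28, 6.09 and 5.88 at 0.06 and from 5.24 through 5.61 to 5.98 at 60, a difference of -0.43 ± 0.20 (unadjusted p = 0.0464), and Hbb-b1 gave -0.40 ± 0.25. The globin genes are close copies of each other, so a probe may take up more than 1. Whether the blood and vessel content of the pieces has a part in any other difference was not tested.

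Clock genes showed 2 differences of opposite sign. Per2, a repressor of the circadian clock, stood at -3.25, -2.43, -2.25 and -2.19 at 0.06 and from -2.19 through -1.99 to -1.34 at 60, just above every 0.06 array. Nr1d1, a repressor that peaks at another time of day, stood at -2.34, -2.50, -2.05 and -2.55 at 0.06 and from -4.64 through -2.87 to -1.88 at 60. Per2 differed by +0.78 ± 0.32 and Nr1d1 by -0.96 ± 0.42 (unadjusted p = 0.0252 and 0.0344, adjusted p = 0.984 for both). Replicates 1 and 2 at 60, both on slide 1, were the highest in Per2 (-1.47 and -1.34) and the lowest in Nr1d1 (-3.95 and -4.64). In Per2 the lowest array, 0.06 replicate 1 (-3.25), was on slide 1 as well. On slide 3 the differences were 0.03 and -0.01. Over all 14 clock genes 8 stood higher, with a median of 0.02, and the hour at which each animal was killed is not given in the sources used here.

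Growth factor and hormone lists held a few genes at an unadjusted p under 0.05, as did 4.27% of all genes. The share was 15.8% in the insulin list, 6.9% in the transforming growth factor list and 15.4% in the thyroid hormone list. Of 19 insulin and insulin-like growth factor genes 4 stood higher, with a median of -0.08, and -0.02 without 60 replicate 2. Pik3r1, the regulatory subunit of phosphoinositide 3-kinase, gave +0.74 ± 0.28 with slide values of 0.52, 0.94 and 0.78, while Igfbp1, a binding protein, gave -0.18 ± 0.08 and the fetal growth factor Igf2 -0.34 ± 0.16. In transforming growth factor and bone morphogenetic protein signalling, 17 of 29 stood higher (median 0.02). There the receptor Tgfbr1 gave +0.25 ± 0.08. Every 60 array (-0.95 to -0.75) was above every 0.06 array (-1.34 to -1.02), as in 35 of the 23258 probes tested. The co-receptor Tgfbr3 gave -0.44 ± 0.19. Of 13 thyroid hormone genes 3 stood higher (median -0.08), with Ttr the lowest and Crym, which binds thyroid hormone inside cells, at +0.62 ± 0.27.

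Lists of chemical and stress responses had medians near 0. Of 16 targets of the xenobiotic receptors AhR, CAR and PXR, 9 stood higher with a median of 0.03, and of 28 NRF2 targets and antioxidant enzymes 15 did, with a median of 0.02. Neither list had a gene at an unadjusted p under 0.05. Without 0.06 replicate 1 the first list turned to a median of -0.15, with 7 of 16 higher and 2 genes at an unadjusted p under 0.05. Heat shock and unfolded protein response genes gave 11 of 21 higher (median 0.02) and ribosomal protein genes 19 of 29 (median 0.02). Apoptosis genes gave 12 of 26 higher (median -0.01, and 0.00 with median centring). Among them Casp6, an executioner caspase, stood at 0.22, 0.22, 0.25 and 0.35 at 0.06 and from 0.35 through 0.53 to 0.64 at 60, a difference of +0.25 ± 0.08 (unadjusted p = 0.00581, adjusted p = 0.984).

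The lists not yet given were of signalling and of neighbouring tissue. Wnt genes gave 9 of 23 higher (median -0.02), Notch genes 8 of 14 (median 0.03), DNA methylation and imprinted genes 11 of 13 (median 0.09) and immediate early genes 14 of 22 (median 0.08). With 1 array left out the Wnt, Notch and immediate early medians changed sign, the last from -0.06 (without 0.06 replicate 3) to 0.25 (without 0.06 replicate 5). Smooth muscle genes gave 4 of 14 (median -0.02), but 11 of 14 with a median of 0.16 without 0.06 replicate 1. In that list Tnnt2, a troponin, gave +0.52 ± 0.16 (unadjusted p = 0.00429; 0.58, 0.24 and 0.85 on slides 1, 2 and 3) with 0.06 replicate 5 at 0.32 and the other 0.06 arrays between 1.09 and 1.32. Oviduct epithelium genes gave 8 of 11 (median 0.19, and 0.06 without 60 replicate 6) and adipocyte genes 2 of 10 (median -0.17, between -0.32 and -0.10 with 1 array left out, 60 replicates 6 and 1). In the adipocyte list Adipoq, the hormone adiponectin, was 0.17 in 0.06 replicate 1 and -1.96 to -1.27 in the other 0.06 arrays. The oviduct marker Foxj1, a factor for cilia, ranged from -8.39 to -5.53 at 0.06 and from -7.09 to -3.03 at 60. The part of oviduct and fat beside the ovary in other differences was not tested.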

How the data were processed

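The files are Agilent 1-colour scanner tables, 1 per array, and per the file headers were made with Feature Extraction 11.5.1.1. The authors deposited per spot a processed intensity (gProcessedSignal) with background and dye effects handled by that software, and a separate table of normalized log2 values per probe, whose scale and centring the sources used here do not state. The columns of that log2 table correlated at 0.946 to 0.991 with the values computed here, with column medians between -0.07 and 0.08, and served as an alternative.

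From the intensities, control and outlier spots were left out, log2 values were taken relative to each array's 75th percentile over non-control spots, and spots of a probe were averaged. Of 30367 probes, 23258 were tested, those for which 4 or more of the 20 arrays read well above background, and 14858 of them have 1 gene symbol from the RefSeq table by accession. All 20 arrays were fitted with limma 3.58.1 in R 4.3.3 (4 dose means, slide as a block) with Benjamini-Hochberg adjustment over all probes. The fit was tested on simulated data.

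The named genes are the 12 of smallest p in each direction and the 5 largest differences in each direction at an unadjusted p under 0.05, among probes with a regular symbol that all arrays of 0.06, of 60 or of both measured well above background; 24 ovarian genes by their brightest probe; and at most 4 genes per list, those of smallest p. The members and the 32 gene lists were chosen with earlier results of these data known. Lists have counts and medians only, with no test. Alternatives covered the slide term, the scaling, the background correction, the filters, each array left out and each slide alone. The background alternative (normexp, offset 50) used the median spot signal.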

Additional observations from a re-analysis of the deposited data

Results flagged for a closer look

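In groups of 4 to 6 arrays, 1 array was set against the rest wherever its gap to the nearest other array took up most of the group's range (Dixon's criterion at the 95% level). Of 182 groups of values checked, 18 had such an array. The criterion flags about 1 in 20 of independent groups with a normal spread. The groups here share arrays and many of the genes were chosen by p or size, so the 18 cannot be read as an excess. The 0.06 and 60 groups were both checked for each named gene and for the mean of each gene list.

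Array 60 replicate 6 stood above the other 60 arrays in 7 genes: Serpinb8 (-3.52, others -4.49 to -4.13), Adgrg5 (-5.08), Or4a77 (-5.73), Dpf3 (-3.23), Or5m8 (-5.11), Pitx3 (-5.06, others -6.22 to -5.83) and Ano7 (-5.67). At 0.06, replicate 5 stood above the others in Dpf3 (-2.89) and Pitx3 (-4.92) and below them in Thra (-0.94). These 2 arrays are the only ones of their dose on slide 3.

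Array 60 replicate 5 was far below the other 60 arrays in Cyp17a1 (-3.52, others 2.05 to 3.86), in Lhcgr (-3.63), in P2ry1 (-6.02) and in the mean of theca and interstitial genes (-0.62), and above them in the mean of apoptosis genes (0.10). At 0.06, replicate 1 was low in Kit (-4.06) and high in the mean of corpus luteum genes (0.59, others 0.06 to 0.13). Replicate 2 at 0.06 was low in Akr1c18 (-2.48, others 6.14 to 7.05).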

How the results depend on the processing

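No probe passed the threshold under any alternative but 1: with each of the 10 arrays left out in turn the calls ranged from 0 to 1 (the 1 without 0.06 replicate 3), and the probes at an unadjusted p under 0.05 from 694 (without 60 replicate 2) to 1974 (without 0.06 replicate 3). Without the slide term 565 probes had an unadjusted p under 0.05, against 1024 with it. With normexp background correction 303 stood higher and 639 lower, and with no filter on dim probes 506 and 866, against 492 and 532. With the authors' deposited table the lowest adjusted p was 0.0736. Replicate numbers were not taken as pairs, since the labels name independent litters and same-numbered arrays deviated together with correlations of -0.27, 0.15, 0.17 and -0.20. A replicate block beside slide gave 1429 probes at an unadjusted p under 0.05 and 0 calls.

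The 36 genes named for their p or size kept their sign in every fit that spanned the slides. Their choice by p or size in the same arrays favours this, so it is no independent support. Their size was not kept with normexp, which shrank 18 of the 24 named for their p by over 1.5 times. Its offset of 50 narrows the differences of dim probes in itself, so this shrinkage is no separate test of them. The medians of 14 of the 32 lists changed sign with 1 array left out. Of the 23 measured ovarian genes named whatever their values, 11 changed sign in at least 1 of those fits, 5 of them with 0.06 replicates 1 and 2 and 60 replicate 5 left out together, an alternative chosen after seeing the data. That alternative moved RatNP-3b to 0.03, Np4 to 0.11 and Atp6v0d2 to -0.40. It gave 686 probes at an unadjusted p under 0.05. A block for the spike-in fit in the file headers was also added later and gave 1018. That block set the arrays with a fitted slope of 0 (1 of 4 at 0.06 and 3 of 6 at 60) against the rest.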
